A study of Homo sapiens with 6 samples.

Results

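The nuclear receptor superfamily was described in Ishikawa cells treated with the antipsychotic drug penfluridol. Its members were the rows of the deposited table whose gene symbol was 1 of 46 nuclear receptor genes, out of 60670 genes in the table. Of these 46 members, 18 had a mean of at least 1 TPM over the 6 libraries and are called expressed here, and 28 lay below that level. TPM is a relative transcript abundance, corrected for transcript length, and set to a common sum per library, so that levels can be compared between genes. Ishikawa is an established line derived from a human endometrial adenocarcinoma. The groups were 3 libraries of cells treated with 5 µM penfluridol and 3 libraries of cells treated with its solvent, DMSO, and the labels give no duration of treatment. Penfluridol is a long-acting diphenylbutylpiperidine that blocks dopamine receptors. The libraries are numbered 1 to 3 within a group with no word on separate cultures, so the p-values rest on a spread among libraries that may be technical.

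Nuclear receptors are transcription factors that bind DNA through a pair of zinc fingers and, in most members, bind a small lipophilic ligand through a separate domain. Steroid receptors are held in a ligand-ready state by HSP90-based chaperones and act mainly as homodimers, whereas the receptors of thyroid hormone, retinoic acid, vitamin D, fatty acids and oxysterols pair with a retinoid X receptor (RXR). Without an activating ligand many of them recruit corepressor complexes with histone deacetylases, and the ligand exchanges these for coactivators. In the endometrium the estrogen and progesterone receptors are the classical drivers of growth and differentiation, and the Ishikawa line is known as a model of estrogen response.

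The libraries carried the markers of an epithelial endometrial line. The 9 epithelial and endometrial carcinoma markers summed to 4401 to 4972 TPM in penfluridol libraries and 6846 to 8656 TPM in DMSO libraries, and 1 of them was called higher with penfluridol (SOX17) and 2 were called lower (KRT8 and WFDC2). After the GC content and length correction described below none was called higher and 4 were called lower (KRT8, KRT18, KRT19 and WFDC2). The 7 stromal markers summed to 1.87 to 5.04 TPM with penfluridol and 2.50 to 2.93 TPM with DMSO, with DCN, LUM and PDGFRB listed at 0 throughout. The 6 immune markers summed to 4.56 to 4.95 TPM with penfluridol and 0.77 to 2.02 TPM with DMSO, a difference that lay in CD68, which also encodes a lysosomal membrane protein, while CD3E and MS4A1 were listed at 0. The part of these markers in the receptor results was not tested. The 4 endothelial markers stayed below 1 TPM in sum in each library. Read depth is unknown, since TPM keeps no counts. Pearson's r of log2(TPM + 1) over the 12201 genes tested was 0.97 to 0.982 between penfluridol libraries and 0.93 to 0.96 between DMSO libraries, and DMSO 3 correlated with the penfluridol libraries at 0.945 to 0.955, close to its 0.956 with DMSO 1 and above its 0.93 with DMSO 2. For RARG, PPARA, PPARG, NR1H3, NR2C1, NR2F1 and NR2F6 the DMSO 3 value lay within the range of the penfluridol values.

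The expressed members were mostly orphan, retinoid, thyroid hormone, fatty acid and oxysterol receptors, and none of the 5 steroid receptor genes measured reached a mean of 1 TPM. ESRRA, encoding the estrogen-related receptor alpha (ERRα), had the highest level of the 46 members in both groups, followed by NR1H2, encoding the oxysterol receptor LXRβ. In DMSO libraries RARG, THRA and RXRB came next at group means of 31.0 ± 1.54, 30.8 ± 3.51 and 29.5 ± 1.99 TPM (SD, n = 3), and these neighbours did not differ beyond their spread. The 46 members summed to 426, 427 and 448 TPM in the penfluridol libraries, against 313, 301 and 314 TPM in the DMSO libraries. ESRRA and NR1H2 together made up 46.3%, 43.3% and 36.9% of that sum with penfluridol, against 31.0%, 29.7% and 35.8% with DMSO. Both measures had penfluridol above DMSO without overlap, and in bulk RNA a change in the share of cells expressing a gene and a change in RNA per cell cannot be told apart.

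**Figure D1:**
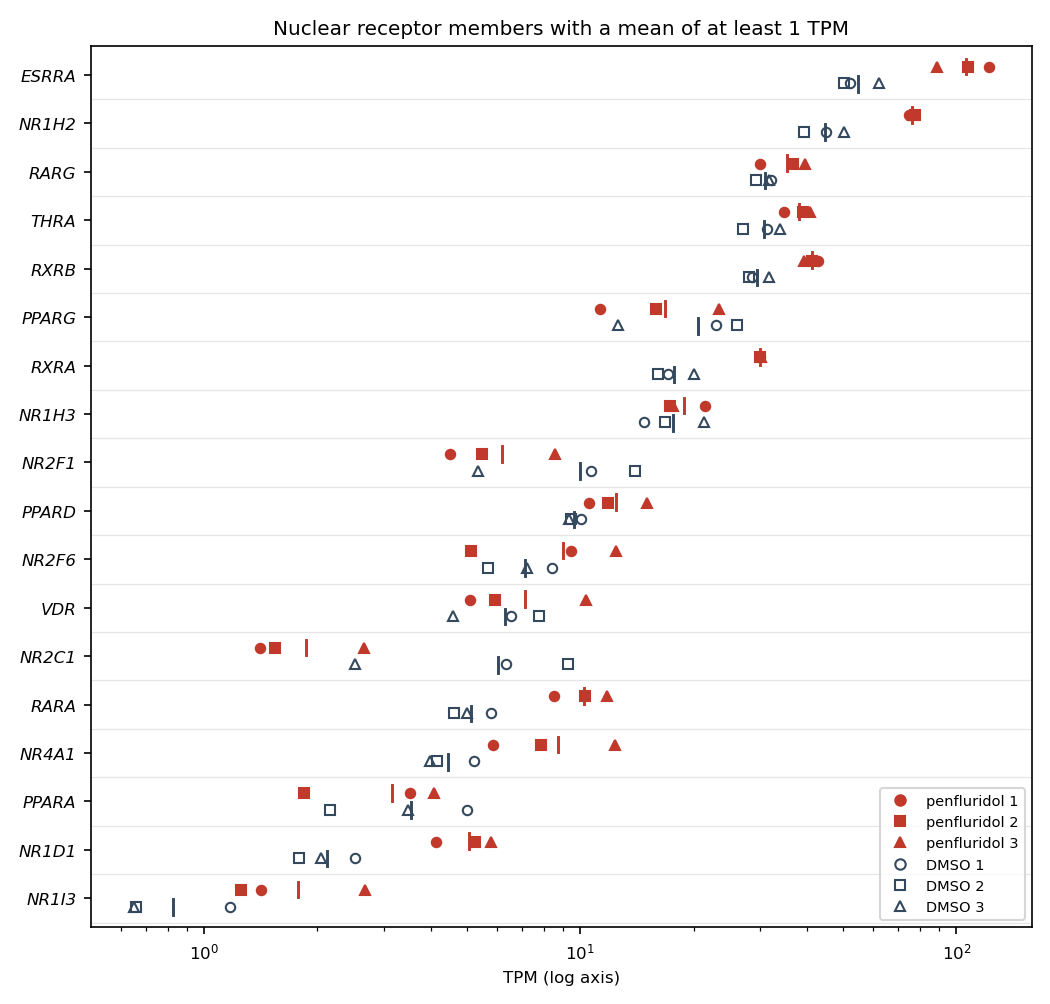
TPM of the 18 expressed nuclear receptor members on a log axis, ordered by their mean in DMSO, with penfluridol libraries (filled, red) above DMSO libraries (open, blue) in each row and a vertical tick at each group mean. ESRRA and NR1H2 lead in both groups, and in 10 of the 18 rows the 3 penfluridol points lie to the right of all 3 DMSO points.

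Against DMSO, penfluridol raised 6 of the 18 expressed receptors and lowered none at an adjusted p under 0.05 (limma on log2(TPM + 1), Benjamini-Hochberg over all 12201 genes tested). The 6 were ESRRA, NR1H2, RXRA, RARA, NR1D1 and RXRB, which is 33.3% of the expressed members, and among all genes tested 9.75% were called higher and 3.48% lower, 13.2% in either direction. At an unadjusted p under 0.05 the counts were 7 higher and 1 lower, the additional genes being NR4A1 and NR2C1. The shares of all genes at an unadjusted p are not given here. Counts at that threshold, in this and all later comparisons, are therefore a description only. In 10 of the expressed members (55.6%) the 3 penfluridol values lay above all 3 DMSO values, against 23.3% of all genes tested, and in none did they all lie below, against 13.6%. The 10 include NR1I3, whose group mean reached 1 TPM only with penfluridol (1.78 TPM, against 0.827 TPM with DMSO). The median log2 fold change was 0.32 over the 18 expressed members and -0.04 over all genes tested. The added 1 TPM makes the fold change of a low-TPM gene smaller than its ratio.

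Transcript GC content moved with these differences. Over the 12112 tested genes with a GC value the log2 fold change correlated with the median GC content of a gene's transcripts at r = 0.52, a description across genes, which are not independent. When the genes were divided into 5 equal bins of GC content, the median log2 fold change was -0.68 in the lowest bin and 0.35 in the highest, where 23.7% were called higher. Median GC content was 59.6% in the expressed receptors and 51.8% over the whole set, and 8 receptors lay in the highest bin and 6 in the next. The 6 called receptors lay between 58.5% and 64.1%, and of the 3061 genes tested at or above 58.5%, a limit set after the values were seen, 23.0% were called higher and 1.76% lower. After each library's trend with GC content and transcript length was removed, 4 receptors were called higher (ESRRA, NR1H2, RXRA and NR1D1) and none lower, where 10.1% of all genes were called higher and 8.93% lower. At an unadjusted p under 0.05 these counts were 5 and 1. The median over the 18 members was then 0.02, with 9 members above 0 and 9 below. How much of each difference belongs to GC content was not tested beyond this correction.

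**Figure D2:**
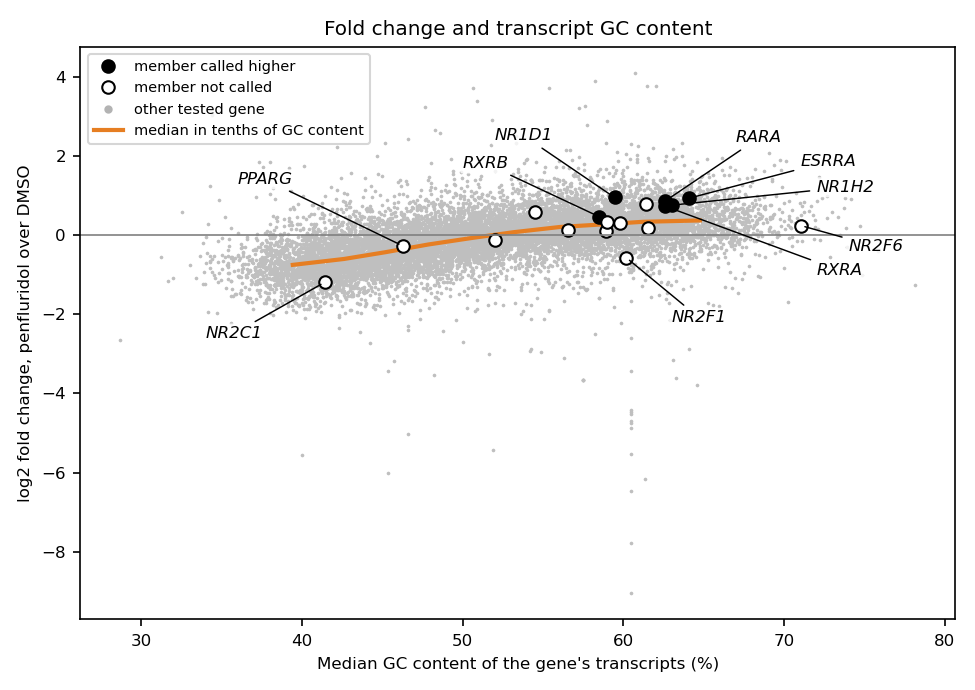
Log2 fold change of penfluridol over DMSO against the median GC content of a gene's transcripts for the tested genes (grey), the expressed receptors called higher (filled black) and the other expressed receptors (open), with the median in bins of GC content (orange). The 6 called receptors lie above the orange line between 58.5% and 64.1% GC, and NR2C1 sits at 41.4% GC with a log2 fold change of -1.19.

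Estrogen-related receptors resemble estrogen receptors in sequence but bind no natural estrogen, and ERRα works with the PGC-1 coactivators on genes of mitochondrial respiration. ESRRA stood at 122, 107 and 88.8 TPM in the penfluridol libraries, against 52.2, 50.2 and 62.2 TPM in the DMSO libraries. The groups did not overlap, and DMSO 3 was the highest of its group. The group means were 106 ± 16.8 TPM with penfluridol and 54.9 ± 6.39 TPM with DMSO, the log2 fold change being 0.93 (SE 0.15, adjusted p = 0.0121, limma). After the GC content and length correction it was 0.60 (SE 0.13, adjusted p = 0.0189). ESRRA (ENSG00000173153, chr11:64305572-64316743, plus strand, GRCh38) shares 284 exonic bases with TRMT112 on the opposite strand, which was at 617 ± 61.0 TPM with penfluridol and 456 ± 71.6 TPM with DMSO (adjusted p = 0.0836, limma), and without a statement of strand in the counting the reads of the overlap cannot be told apart. ESRRB lay below the level of expression, at 0.54, 0.49 and 0.59 TPM with penfluridol and 1.3, 0.74 and 0.86 TPM with DMSO, and ESRRG was listed at 0 in all 6 libraries.

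The retinoid X receptors are the common dimer partners of the family, and both expressed members were called higher. RXRA stood at 30.0, 30.0 and 30.3 TPM in the penfluridol libraries, against 17.1, 16.1 and 20.04 TPM in the DMSO libraries, the log2 fold change being 0.74 (SE 0.13, adjusted p = 0.0167, limma). The penfluridol values were within 1 TPM of each other and the DMSO values all lay well below them. RXRB stood at 43.0, 41.4 and 39.3 TPM with penfluridol, against 28.5, 28.2 and 31.8 TPM with DMSO, the log2 fold change being 0.47 (SE 0.12, adjusted p = 0.0433, limma). Its call was not made after the GC content and length correction (0.17 on the log2 scale, adjusted p = 0.287), with median-of-ratios scaling (adjusted p = 0.125) or with trimmed-mean scaling (adjusted p = 0.112). It shares 244 exonic bases with SLC39A7 on the opposite strand, a zinc transporter gene at 298 ± 12.7 TPM with penfluridol and 158 ± 11.1 TPM with DMSO (adjusted p = 0.00350, limma). RXRG was listed at 0 in all 6 libraries. The RXR sum was 73.0, 71.4 and 69.5 TPM with penfluridol, against 45.6, 44.2 and 51.8 TPM with DMSO.

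The oxysterol receptors LXRα and LXRβ pair with RXR on genes of sterol efflux, and NR1H2 was called higher while NR1H3 was not called. NR1H2, the broadly expressed LXRβ, stood at 74.8, 77.5 and 76.7 TPM in the penfluridol libraries, against 44.9, 39.4 and 50.3 TPM in the DMSO libraries. The groups were far apart relative to their spread, with the log2 fold change being 0.76 (SE 0.12, adjusted p = 0.0117, limma) and 0.45 after the GC content and length correction (SE 0.08, adjusted p = 0.0108). NR1H3, encoding LXRα, stood at 21.5, 17.4 and 17.7 TPM with penfluridol and 14.8, 16.8 and 21.4 TPM with DMSO, groups that overlapped (log2 fold change 0.10, SE 0.18, adjusted p = 0.721, limma). The difference between these 2 responses was not tested. NR1H4, encoding the bile acid receptor FXR, was listed at 0 in all 6 libraries.

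The receptors of retinoic acid and thyroid hormone bind DNA as RXR heterodimers and repress their targets when no ligand is bound. RARA stood at 8.54, 10.3 and 11.8 TPM in the penfluridol libraries, against 5.78, 4.62 and 4.99 TPM in the DMSO libraries, without overlap (log2 fold change 0.86, SE 0.19, adjusted p = 0.0282, limma). With the correction it had a log2 fold change of 0.51 (adjusted p = 0.0568), and it shares 556 exonic bases with RARA-AS1 on the opposite strand, which itself had a log2 fold change of 0.84. RARG, the retinoic acid receptor best known from epithelia and skin, stood at 30.0, 36.7 and 39.6 TPM with penfluridol and 32.1, 29.3 and 31.7 TPM with DMSO, and these groups overlapped (log2 fold change 0.18, SE 0.14, adjusted p = 0.396, limma). The THRA gene, encoding thyroid hormone receptor alpha, stood at 34.8, 39.02 and 40.8 TPM with penfluridol and 31.4, 27.02 and 33.95 TPM with DMSO. Its groups did not overlap, by a margin of under 1 TPM, and it did not pass (log2 fold change 0.31, SE 0.14, adjusted p = 0.171, limma, and 0.00 after the correction). RARB and THRB lay below 1 TPM on average, and THRB ran from 0.69 to 0.77 TPM with penfluridol and from 0.27 to 1.18 TPM with DMSO.

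NR1D1 encodes REV-ERBα, a heme-binding repressor that links the circadian clock to metabolism, and its gene lies tail to tail with THRA on the opposite strand. It stood at 4.14, 5.25 and 5.80 TPM in the penfluridol libraries, against 2.52, 1.79 and 2.05 TPM in the DMSO libraries. Every penfluridol value was above every DMSO value, with the log2 fold change being 0.96 (SE 0.21, adjusted p = 0.0307, limma) and of 0.62 after the GC content and length correction (SE 0.15, adjusted p = 0.0310). NR1D1 shares 263 exonic bases with the more abundant THRA, so reads of the overlap are uncertain. Its paralog NR1D2 lay at 0.13, 0.42 and 0.24 TPM with penfluridol and 0.33, 1.19 and 0.30 TPM with DMSO, with overlap. The activators of the same DNA sites were low or listed at 0, with RORA at 0.01, 0.32 and 0.63 TPM with penfluridol against 0.72, 0.84 and 0.41 TPM with DMSO, and RORB listed at 0.

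On GRCh38 the called genes other than ESRRA lie at chr19:50329653-50382982 (NR1H2, plus strand), chr9:134317098-134440585 (RXRA, plus strand), chr6:33193588-33200688 (RXRB, minus strand), chr17:40309192-40357643 (RARA, plus strand) and chr17:40092787-40100725 (NR1D1, minus strand). Calls of the 6 receptors depended on which library was left out. ESRRA, NR1H2 and RXRA each lost their call in 3 of 6 such fits. Without penfluridol 1 the adjusted p was 0.0516, 0.0512 and 0.0657 for ESRRA, NR1H2 and RXRA in this order, without penfluridol 2 it was 0.0818, 0.0837 and 0.103, and without DMSO 1 it was 0.0718, 0.0668 and 0.0875. RARA, NR1D1 and RXRB were called in 1 of the 6, namely that without DMSO 3, and their adjusted p lay between 0.0623 and 0.183 in the others. Their log2 fold changes stayed above 0 in all 6 fits, from 0.44 for RXRB without DMSO 2 to 1.07 for NR1D1 without penfluridol 1. Without DMSO 3 all 6 were called and NR2C1 was called lower as well.

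**Figure D3:**
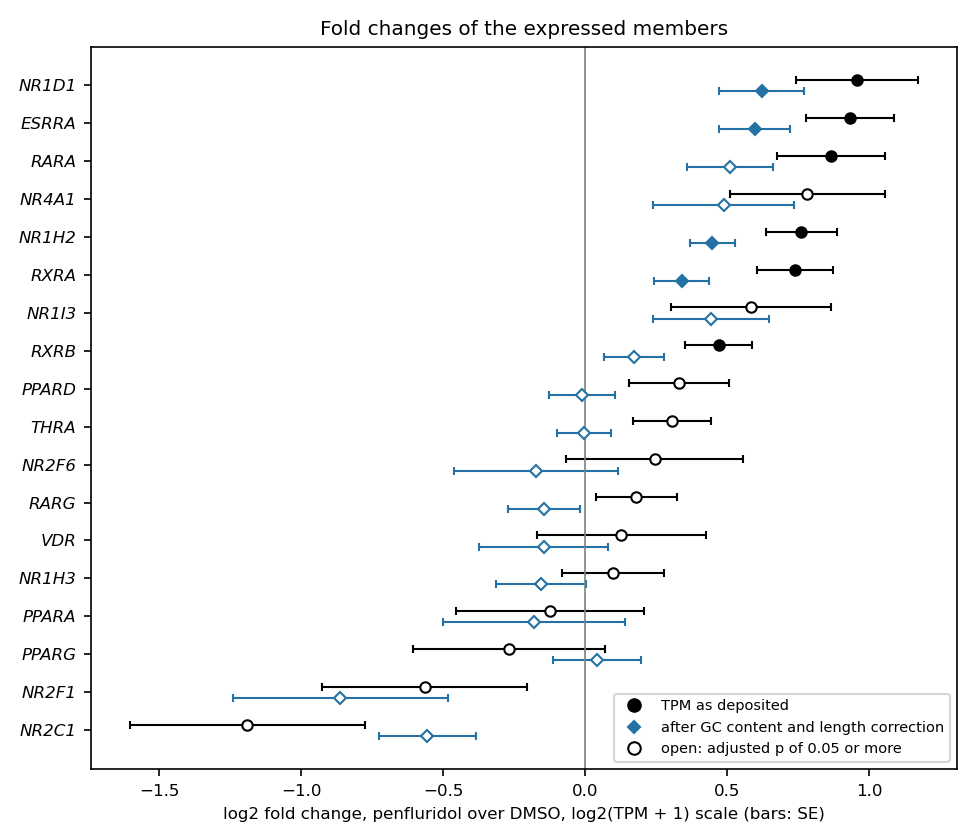
Log2 fold changes of penfluridol over DMSO with their SE for the 18 expressed receptors, from TPM as deposited (circles) and after the GC content and length correction (diamonds), filled where the adjusted p was under 0.05. With TPM as deposited 6 receptors are filled, and after the correction 4 remain filled, ESRRA, NR1H2, RXRA and NR1D1.

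The stretch before the transcription start is given for the 4 receptors that were called both with TPM as deposited and after the correction, since GC content moved with the fold changes. The sequences are RefSeq's (GRCh38.p14), read 5′ to 3′ on the gene's strand over the 250 bases before the start, and capitals mark the GC box GGGCGG or its complement CCGCCC, the hexamer known as the recognition site of SP-family zinc finger factors. Overlapping matches were counted separately.
ESRRA, chr11:64305274-64305523, plus strand: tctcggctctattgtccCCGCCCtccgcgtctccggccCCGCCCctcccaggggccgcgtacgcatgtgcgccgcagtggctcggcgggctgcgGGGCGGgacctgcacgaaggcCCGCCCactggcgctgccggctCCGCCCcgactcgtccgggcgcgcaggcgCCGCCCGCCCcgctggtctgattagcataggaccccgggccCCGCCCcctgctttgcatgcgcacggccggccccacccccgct
NR1H2, chr19:50376207-50376456, plus strand: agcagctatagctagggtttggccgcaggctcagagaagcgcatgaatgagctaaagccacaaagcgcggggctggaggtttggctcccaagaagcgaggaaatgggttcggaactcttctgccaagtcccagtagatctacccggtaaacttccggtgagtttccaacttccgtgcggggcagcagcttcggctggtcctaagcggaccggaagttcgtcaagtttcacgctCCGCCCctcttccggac
RXRA, chr9:134326205-134326454, plus strand: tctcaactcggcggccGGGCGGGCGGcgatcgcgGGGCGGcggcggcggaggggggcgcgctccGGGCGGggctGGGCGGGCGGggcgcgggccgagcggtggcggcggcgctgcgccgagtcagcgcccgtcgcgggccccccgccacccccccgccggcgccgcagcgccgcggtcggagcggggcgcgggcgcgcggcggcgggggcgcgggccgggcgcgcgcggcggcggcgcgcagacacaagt
NR1D1, chr17:40100590-40100839, minus strand: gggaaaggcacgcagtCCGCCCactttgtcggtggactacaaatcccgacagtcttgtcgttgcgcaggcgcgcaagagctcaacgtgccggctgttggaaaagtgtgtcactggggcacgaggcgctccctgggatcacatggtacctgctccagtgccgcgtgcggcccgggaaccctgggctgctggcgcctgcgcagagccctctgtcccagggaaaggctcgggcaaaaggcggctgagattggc

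The ESRRA window held 8 GC boxes, a number reached by 0.584% of all 35116 RefSeq windows of this length, and the RXRA window printed held 6, while those of NR1H2 and NR1D1 held 1 each. RXRA has a second RefSeq start, not printed, whose window held 1 GC box at a GC content of 64.4%. GC content was 78.0% in the ESRRA window, 57.6% in that of NR1H2, 89.2% in the printed RXRA window and 64.8% in that of NR1D1, against a median of 58.0% over all windows. Among the expressed members 16 had entries, with 31 windows from alternative starts, and 17 of these (54.8%) held a GC box, against 42.6% of all windows. THRA and PPARA, which did not pass the test, had windows with 8 and 9 GC boxes, so the count did not separate called from other members. The receptor hexamer AGGTCA occurred in 5 of the 31 windows (16.1%, against 12.1% of all), the cAMP response element TGACGTCA and the amino acid response element TGATGNAA in none (against 1.65% and 3.14%), and the E-box CACGTG in 1, that of NR2C1 (against 6.34%). Both strands were searched, and a match is a run of letters, not a site shown to be bound.

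The NR4A receptors are immediate early genes that act without a classical ligand. NR4A1, also known as NUR77, stood at 5.87, 7.87 and 12.4 TPM in the penfluridol libraries, against 5.23, 4.15 and 3.99 TPM in the DMSO libraries. The groups did not overlap but the penfluridol values spread over more than the DMSO ones, and the gene did not pass (log2 fold change 0.78, SE 0.27, adjusted p = 0.101, limma). It was called with median-of-ratios scaling (adjusted p = 0.0490) and trimmed-mean scaling (adjusted p = 0.0445). It was not called after the GC content and length correction (0.49 on the log2 scale, adjusted p = 0.206, limma). None of the 6 fits that left out a library called NR4A1 (adjusted p from 0.0952 to 0.246, limma). NR4A2 lay at 0.24, 0.49 and 0.48 TPM with penfluridol and 0.43, 1.09 and 0.55 TPM with DMSO, and NR4A3 at no more than 0.02 TPM in any library.

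The PPARs are fatty acid sensors that pair with RXR, and none of the 3 passed. PPARD stood at 10.6, 11.8 and 15.03 TPM with penfluridol and 10.1, 9.45 and 9.36 TPM with DMSO, without overlap (log2 fold change 0.33, SE 0.18, adjusted p = 0.225, limma). PPARG, the adipogenic member and in both groups the most abundant of the 3, stood at 11.3, 15.9 and 23.3 TPM with penfluridol and 23.01, 26.1 and 12.6 TPM with DMSO. Its groups overlapped, with DMSO 3 next to the lowest penfluridol library (log2 fold change -0.27, SE 0.34, adjusted p = 0.593, limma). PPARA, the liver-type regulator of fatty acid oxidation, stood at 3.53, 1.84 and 4.09 TPM with penfluridol and 4.99, 2.16 and 3.48 TPM with DMSO, again with overlap (log2 fold change -0.12, SE 0.33, adjusted p = 0.814, limma).

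The vitamin D receptor gene VDR stood at 5.09, 5.92 and 10.4 TPM with penfluridol and 6.53, 7.77 and 4.58 TPM with DMSO, with overlap (log2 fold change 0.13, SE 0.30, adjusted p = 0.787, limma). NR1I3, encoding the xenobiotic sensor CAR, stood at 1.42, 1.25 and 2.67 TPM with penfluridol and 1.17, 0.66 and 0.65 TPM with DMSO. Its group mean reached 1 TPM with penfluridol only, at 1.78 ± 0.775 TPM against 0.827 ± 0.297 TPM with DMSO, although DMSO 1 lay above 1 TPM. The gene did not pass (adjusted p = 0.191, limma). NR1I3 also shares 661 exonic bases with TOMM40L on the opposite strand, at 13.97 ± 0.699 TPM with penfluridol and 13.92 ± 1.60 TPM with DMSO. NR1I2, encoding the xenobiotic sensor PXR, was listed at 0 in all 6 libraries.

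The orphan receptors of the NR2 group held the members with the lowest fold changes. NR2C1, encoding testicular receptor 2, stood at 1.41, 1.54 and 2.66 TPM in the penfluridol libraries, against 6.36, 9.27 and 2.52 TPM in the DMSO libraries. DMSO 3 lay within the penfluridol values, and the gene did not pass (log2 fold change -1.19, SE 0.41, adjusted p = 0.0992, limma), whereas without DMSO 3 the log2 fold change was -1.62 (adjusted p = 0.0132). Its transcripts had a GC content of 41.4%, the lowest of the 18, and the log2 fold change was -0.56 after the correction (adjusted p = 0.0634). NR2F1, encoding the developmental regulator COUP-TF1, stood at 4.51, 5.48 and 8.56 TPM with penfluridol and 10.7, 13.99 and 5.34 TPM with DMSO, again with DMSO 3 among the penfluridol values (log2 fold change -0.57, SE 0.36, adjusted p = 0.301, limma). Its GC content was 60.2%, and its log2 fold change moved away from 0 with the correction, to -0.86 (adjusted p = 0.152). Exonic bases are also shared with a gene on the opposite strand by NR1H3 (ACP2), NR2F1 (NR2F1-AS1), NR4A1 (AC025259.3) and VDR (AC121338.1), and with AC010646.1 on the same strand by NR2F6, so their values carry the same uncertainty. NR2F6, encoding EAR2, stood at 9.44, 5.13 and 12.5 TPM with penfluridol and 8.43, 5.70 and 7.20 TPM with DMSO, with overlap (log2 fold change 0.24, SE 0.31, adjusted p = 0.599, limma).

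Transcripts of the steroid receptors were near the floor of the table in both groups. ESR1, encoding estrogen receptor alpha, was listed at 0, 0 and 0.33 TPM with penfluridol and at 0 in all 3 DMSO libraries. PGR, encoding the progesterone receptor, was listed at 0, 0.05 and 0 TPM with penfluridol and at 0, 0.07 and 0 TPM with DMSO. ESR2 reached 0.15 TPM with penfluridol and 0.17 TPM with DMSO at most. NR3C1, the glucocorticoid receptor gene, stood at 0.28, 0.18 and 0.04 TPM with penfluridol and 0.23, 0.79 and 0.16 TPM with DMSO, and NR3C2, the mineralocorticoid receptor gene, at 0.07, 0.17 and 0.10 TPM with penfluridol and 0.49, 0.29 and 0.12 TPM with DMSO. The groups overlapped for each of the 5. Depth is unknown, so these levels do not show that a receptor was absent.

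**Figure D4:**
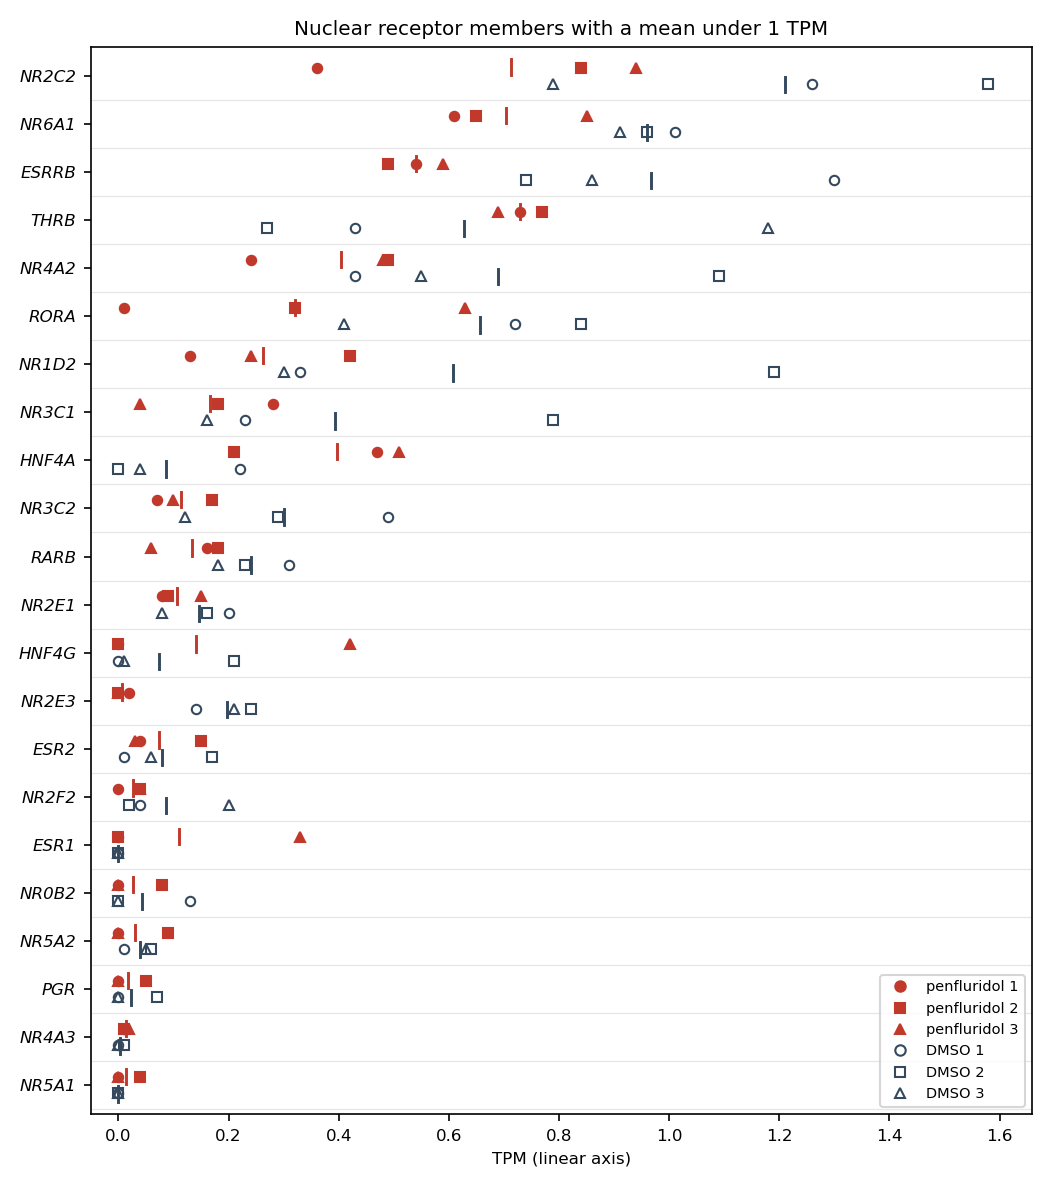
TPM on a linear axis for the 22 members with a mean under 1 TPM and a value above 0 in at least 1 library, with penfluridol libraries (filled, red) above DMSO libraries (open, blue) in each row and a tick at each group mean. ESRRB, NR6A1 and NR2E3 have all penfluridol points left of all DMSO points.

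The 28 members below a mean of 1 TPM were not tested, and 6 of them, ESRRG, RXRG, NR1I2, NR1H4, RORB and NR0B1, were listed at 0 in all 6 libraries. Just outside the level of expression were NR2C2, encoding testicular receptor 4, at a mean of 0.962 TPM and NR6A1, the germ cell nuclear factor gene, at 0.832 TPM, while the members just inside were NR1I3 at 1.303 TPM and PPARA at 3.35 TPM. In 3 of the 28 all penfluridol values lay below all DMSO values, and in 0 did they all lie above. Among the genes tested, which had means of at least 1 TPM, these shares were 13.6% below and 23.3% above. The shares over all genes under 1 TPM were not computed, so the count is a description only. The 3 members were NR6A1, ESRRB and NR2E3. NR6A1 was at 0.61, 0.65 and 0.85 TPM with penfluridol and 1.01, 0.96 and 0.91 TPM with DMSO. ESRRB is given above. NR2E3, a photoreceptor regulator, was at 0.02, 0 and 0 TPM with penfluridol and 0.14, 0.24 and 0.21 TPM with DMSO. HNF4A, a liver and gut regulator, ran from 0.21 to 0.51 TPM with penfluridol and from 0 to 0.22 TPM with DMSO. NR2C2 ran from 0.36 to 0.94 TPM with penfluridol and from 0.79 to 1.58 TPM with DMSO. HNF4G, NR2E1, RARB, the developmental regulator NR2F2, the steroidogenic factor gene NR5A1, its paralog NR5A2 and NR0B2, the bile-acid-induced repressor SHP, did not exceed 0.42 TPM in any library.

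Lists of coactivators, chaperones and target genes were examined beside the receptors. Fold changes across each list are read against the median of -0.04 over all genes tested. Calls in a list are read against 9.75% of all genes tested called higher and 3.48% lower. After the GC content and length correction these shares were 10.1% and 8.93%. The lists are small, and whether their counts differ from these shares was not tested. Of 11 tested coactivators none was called and 1 was higher at an unadjusted p under 0.05, with a list median log2 fold change of -0.20. After the GC content and length correction 3 were called lower, NCOA5, CARM1 and SMARCA4, with adjusted p-values of 0.0177, 0.0231 and 0.0396 (limma). The arginine methyltransferase gene PRMT1, the most abundant, was at 486 ± 54.6 TPM with penfluridol and 561 ± 73.7 TPM with DMSO (adjusted p = 0.322, limma). The coactivators NCOA1, NCOA2, NCOA3, PPARGC1A and PPARGC1B, which include those best known for steroid receptors and ERRα, had means below 1 TPM over the 6 libraries.

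Of 11 tested receptor chaperones 2 were called lower, HSPA8 and HSP90AA1, and none higher. At an unadjusted p under 0.05 the counts were 6 lower and 1 higher, and the list median was -0.66. HSPA8, the constitutive HSC70, fell to 262 ± 74.2 TPM with penfluridol, against 752 ± 204 TPM with DMSO (log2 fold change -1.52, SE 0.27, adjusted p = 0.0159, limma). That call was lost in 4 of 6 fits that left out a library, penfluridol 1 or 2 or DMSO 1 or 2, with adjusted p-values up to 0.0842. HSP90AA1 stood at 4.36, 8.30 and 8.75 TPM with penfluridol, against 42.2, 95.9 and 18.01 TPM with DMSO (log2 fold change -2.45, SE 0.56, adjusted p = 0.0327, limma). HSP90AA1 was called in 1 of the 6 fits, that without DMSO 3, with adjusted p-values up to 0.125 in the others. The more abundant HSP90AB1 was at 420 ± 91.4 TPM with penfluridol and 694 ± 147 TPM with DMSO. It was not called (log2 fold change -0.72, SE 0.21, adjusted p = 0.0693, limma). With the GC content and length correction HSP90AB1 was called lower (-0.54 on the log2 scale, adjusted p = 0.00921, limma). After the GC content and length correction 5 chaperones were called lower and none higher, and the list median was -0.34.

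Of 12 tested genes of retinoid metabolism and retinoic acid response 1 was called higher, DHRS3, and 3 lower, TGM2, FABP5 and RDH10, with 4 higher and 3 lower at an unadjusted p under 0.05 and a list median of 0.22. TGM2, tissue transglutaminase, a classical retinoic acid target, fell to 23.8 ± 2.18 TPM with penfluridol, against 63.6 ± 8.21 TPM with DMSO (log2 fold change -1.38, SE 0.15, adjusted p = 0.00291, limma), and it was called in all 6 fits that left out a library. DHRS3 and FABP5 lost their calls without penfluridol 2 or DMSO 1 (adjusted p up to 0.0706 and 0.058), and RDH10 was called in 1 of the 6 fits, that without DMSO 3 (adjusted p up to 0.178 in the others). The genes that moved act at different steps. DHRS3 reduces retinal to retinol, RDH10 makes retinal, and FABP5 carries retinoic acid and fatty acids.

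Of 6 tested LXR targets 1 was called higher, APOE, and 2 lower, LPCAT3 and SREBF1, with a list median of -0.41. LPCAT3 and SREBF1 lost their calls without penfluridol 1, penfluridol 2, DMSO 1 or DMSO 2, with adjusted p-values up to 0.136 and 0.157. APOE, an apolipoprotein of cholesterol transport, rose to 124 ± 8.65 TPM with penfluridol, against 48.1 ± 8.10 TPM with DMSO (log2 fold change 1.35, SE 0.15, adjusted p = 0.00344, limma), and it was called in all 6 fits that left out a library. ABCA1, the sterol efflux transporter most used as an LXR reporter, was at 0.0767 ± 0.0404 TPM with penfluridol and 0.0733 ± 0.0577 TPM with DMSO. ABCG1 was at 0.82, 1.28 and 1.39 TPM with penfluridol and 0.55, 0.53 and 0.58 TPM with DMSO, without overlap. ABCG5, ABCG8 and SMPDL3A had lower means with penfluridol and did not exceed 0.22 TPM in any library. All of these had means below 1 TPM over the 6 libraries and were not tested. Of 12 tested PPAR targets 3 were called higher, ANGPTL4, ACADVL and SLC25A20, and none lower, with 4 lower at an unadjusted p under 0.05 and a list median of -0.34. ANGPTL4, a secreted lipase inhibitor that is also induced by hypoxia and stress, rose to 29.3 ± 0.491 TPM with penfluridol, against 11.8 ± 1.1 TPM with DMSO (log2 fold change 1.25, SE 0.13, adjusted p = 0.00309, limma), with a call in all 6 fits that left out a library.

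Of 9 tested targets of ERR and PGC-1 none was called and 1 was higher at an unadjusted p under 0.05, with a list median of 0.15. After the GC content and length correction MFN2, a mitochondrial fusion gene, was called higher (0.37 on the log2 scale, adjusted p = 0.0370, limma). ATP5F1B, the ATP synthase beta subunit, was at 1262 ± 48.9 TPM with penfluridol and 1433 ± 55.8 TPM with DMSO (adjusted p = 0.221, limma). Of 8 tested estrogen receptor targets 3 were called higher, CTSD, STC2 and SIAH2, and 1 lower, PDZK1. The counts were 3 higher and 3 lower at an unadjusted p under 0.05, and the list median was -0.12. CTSD, a lysosomal protease gene, rose to 376 ± 12.5 TPM with penfluridol, against 202 ± 35.2 TPM with DMSO (log2 fold change 0.91, SE 0.14, adjusted p = 0.00980, limma), a call lost without penfluridol 2 or DMSO 1 with adjusted p-values up to 0.0706. The genes most used as estrogen reporters, GREB1 and TFF1, were at 1.32 ± 0.305 and 0.86 ± 0.243 TPM with penfluridol and 2.21 ± 0.318 and 0.337 ± 0.178 TPM with DMSO.

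Of 9 tested targets of the glucocorticoid and progesterone receptors 3 were called higher, PER1, DUSP1 and TSC22D3, and none lower. The counts were 4 higher and 2 lower at an unadjusted p under 0.05, and the list median was 0.06. PER1, which also stands among the clock genes, rose to 17.3 ± 0.545 TPM with penfluridol, against 5.91 ± 0.919 TPM with DMSO (log2 fold change 1.41, SE 0.16, adjusted p = 0.00403, limma), with a call in all 6 fits that left out a library. Of 10 tested clock partners of REV-ERB and ROR PER1 was the single call. At an unadjusted p under 0.05 there were 2 higher and none lower, and the list median was 0.26. The REV-ERB target ARNTL, which encodes BMAL1, was at 1.57 ± 0.0611 TPM with penfluridol and 1.35 ± 0.798 TPM with DMSO (adjusted p = 0.678, limma). Of 3 tested targets of VDR, FXR, PXR and CAR 1 was called higher, the calcium channel gene TRPV6, at 5.50 ± 0.303 TPM with penfluridol and 2.51 ± 0.623 TPM with DMSO (adjusted p = 0.0337, limma), while none was called lower and 1 was lower at an unadjusted p under 0.05. TRPV6 was called in 1 of the 6 fits that left out a library, that without DMSO 3.

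Over these lists 20 genes were called, of which 5 were called in all 6 fits that left out a library (ANGPTL4, APOE, DUSP1, PER1 and TGM2) and 15 lost the call in at least 1. The calls lost numbered 9 without penfluridol 1, 15 without penfluridol 2, 5 without penfluridol 3, 14 without DMSO 1, 7 without DMSO 2 and 0 without DMSO 3. With the GC content and length correction the calls were 1 higher and 2 lower among LXR targets, 3 higher and 2 lower among PPAR targets, 1 higher and 3 lower among retinoid genes, and 2 higher and 2 lower among estrogen receptor targets. They were 3 higher and 1 lower among glucocorticoid and progesterone receptor targets, 1 higher and 1 lower among targets of VDR, FXR, PXR and CAR, and 2 higher among the clock partners.

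**Figure D5:**
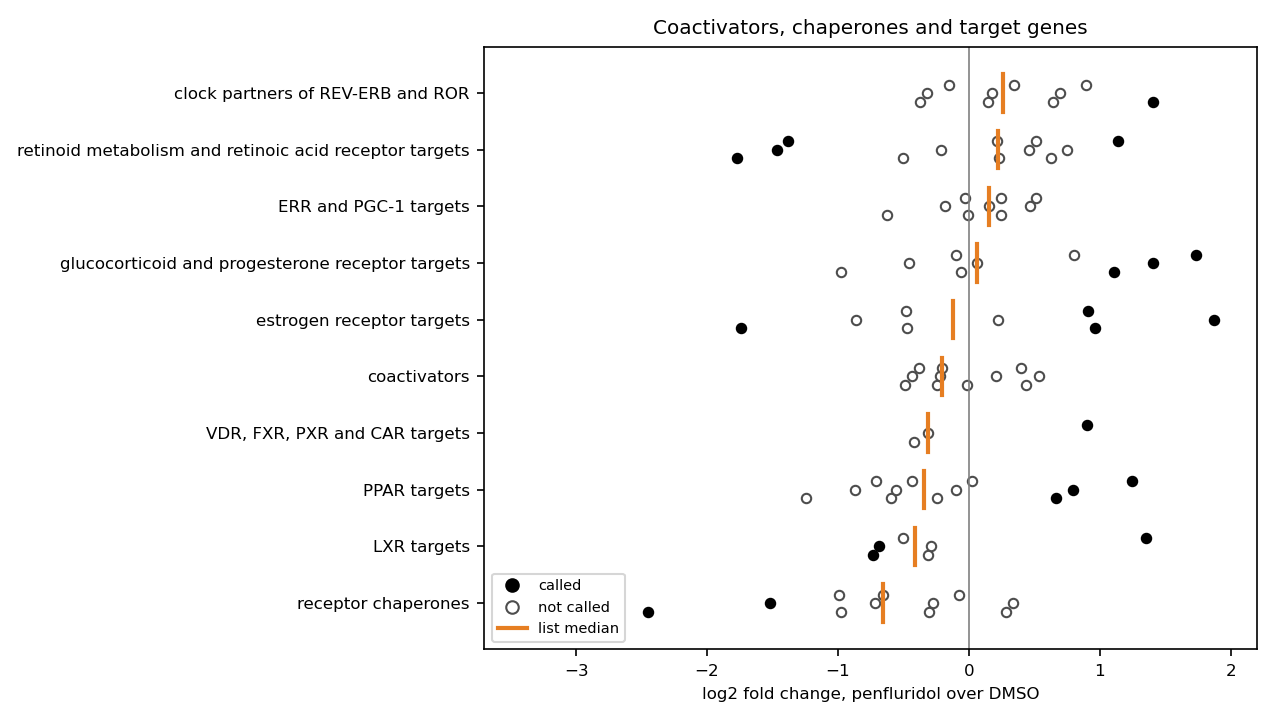
Log2 fold changes of penfluridol over DMSO for the tested genes of the coactivator, chaperone and target gene lists described above, filled where the adjusted p was under 0.05, with the list median as an orange line. The receptor chaperones have the lowest median, -0.66, and the targets of ERR and PGC-1 and the coactivators hold no filled point.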

How the data were processed

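RNA of Ishikawa cells was sequenced from 3 libraries treated with 5 µM penfluridol and 3 treated with DMSO, and samples were grouped by the treatment in their labels. Per the labels' protocols, a SMARTER mRNA-Seq kit was used. The deposited values are TPM, which the authors had computed per gene and library and rounded. The unit follows from the values, since each library summed to 994165 to 997207, while the header is silent. Among tools and builds, fastp, RSEM and GRCh38.p13 stand in the submitters' processing notes. Versions, annotation and strand setting were not given in any source used here.

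The 12201 of 60670 genes whose mean reached 1 TPM were fitted on log2(TPM + 1) with treatment as the single term in limma 3.58.1 (R 4.3.3, trended moderated variances), with two-sided p-values adjusted by the Benjamini-Hochberg method over all genes tested and a call at an adjusted p under 0.05. GC content and transcript length are medians over a gene's transcripts in GENCODE release 29 (GRCh38), which matched 58452 identifiers and gave the positions and exon overlaps, with 1-based coordinates. The correction subtracted from each library an additive spline fit (5 degrees of freedom each) of its deviation from the gene mean on GC content and log length. The fitting code was tried on simulated data with planted changes and independent noise per gene. That setting holds no trend with GC content, so it does not show how the calls fare under such a trend. Alternatives were another pseudocount (0.1), other filters on low TPM (none, or at least 5 TPM in at least 3 libraries), median-of-ratios and trimmed-mean scaling, the GC content and length correction, the replicate number as a block, and leaving out each library. Every expressed member is named. Of each list, called genes are named, and values are given for the called gene with the smallest p or, with no call, for the most abundant gene. Further genes (such as GREB1, TFF1, ARNTL, ABCA1, ABCG1, HSP90AA1 and NCOA1) were picked with their values in view. The members and lists were chosen with earlier results of these data known. RefSeq promoters (GRCh38.p14) matched 41 of the 46 members by symbol. Results of some listed genes are not reported here.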

Additional observations from a re-analysis of the deposited data

How the results depend on the processing

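Receptors called higher numbered 6, and under the alternatives 5 to 6 with another pseudocount, scaling or the filter of 5 TPM, 4 with the GC content and length correction and 3 without a filter, where NR2E3 became the 1 receptor called lower. With either scaling the 6 were not the same genes, as RXRB was not called and NR4A1 was. With 1 library left out 0 to 6 receptors were called higher and 0 to 1 lower. Over all genes, 1190 were called higher and 425 lower, so that 73.7% of calls were increases. The split was 993 and 718 (58.0% increases) with median-of-ratios scaling, 1065 and 671 (61.3%) with trimmed-mean scaling and 1227 and 1081 (53.2%) with the GC content and length correction, and without a filter it was 802 and 194. Leaving out 1 library gave 197 to 1692 higher and 40 to 2261 lower, with the highest counts without DMSO 3. Scaling moved the median log2 fold change of all genes from -0.04 to -0.03 or -0.01. Deviations of same-numbered libraries from their group means correlated at -0.01, -0.01 and -0.35, and those of differently numbered libraries at -0.33 to 0.32. With 3 libraries per group these values cannot decide whether the numbers mark pairs. A fit with the replicate number as a block called 0 receptors in either direction (6 higher and 1 lower at an unadjusted p under 0.05). It called 62 genes higher and 12 lower over the whole set. The block together with the GC content and length correction again called 0 receptors (4 higher and 1 lower unadjusted), with 385 genes higher and 248 lower. No receptor called in the main comparison changed direction under any of these alternatives. Unknown depth limits statements on the 28 receptors under 1 TPM.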
